A study of Mus musculus with 6 samples.

Results

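Calb1, S100g, Trpv5 and Slc8a1 are the 4 genes described here, of the 456 genes counted in 22154 single mouse kidney cells. They were chosen for the steps of transcellular calcium transport that their proteins carry out, and their counts were summed per library and per cell class of the authors. Members were also counted together in single cells of the classes that hold most of their counts: distal convoluted tubule (DCT, 1901 cells), its late part (DCT2, 485 cells), connecting tubule (CNT, 1116 cells) and principal cells of the cortical collecting duct (CCD principal, 1225 cells). Both groups were wild-type (WT in the sample titles) C57BL/6 mice (C57BL/6J in the treatment protocol) aged 16 weeks, with no allele or transgene named. Each group ate a gel diet holding 104 µmol sodium per kcal for 1 week. The diet carried vehicle in 3 samples and furosemide at 70 mg/kg body weight in the other 3. Furosemide is a loop diuretic that blocks Slc12a1, which takes up sodium, potassium and chloride in the thick ascending limb (TAL). Libraries 1, 3 and 5 are vehicle and libraries 2, 4 and 6 furosemide. No label says that samples were separate animals, so the p-values measure only the spread between these samples, which may be technical.

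Calcium that has not been taken up between cells further upstream is reabsorbed through cells in the late distal convoluted and connecting tubule. Trpv5 is the apical channel through which it enters. Calb1 (calbindin-D28k) and S100g (calbindin-D9k) bind it in the cytosol and carry it across the cell, and Slc8a1 (the sodium-calcium exchanger NCX1) passes it out through the basolateral membrane. Vitamin D and parathyroid hormone are known regulators of this route, and loop diuretics raise the amount of calcium that reaches it.

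In CNT cells Calb1 was higher with furosemide by 1.82 on the log2 scale and Slc8a1 by 1.80, while S100g and Trpv5 had overlapping library values there. In DCT2, where Calb1 had its highest level, its fitted change was 0.03. Cells with a count of all 4 genes made up 11.1% of CNT cells under vehicle and 37.2% under furosemide. In CNT, 2 of the 4 members were called, Calb1 and Slc8a1, both higher, against 5.08% of the 256 genes tested in that class. Called here means a p under 0.05 in edgeR's quasi-likelihood test after Benjamini-Hochberg adjustment across all genes of the class. In DCT 0 of 4 members were called, against 4.73% of 275 genes, and in DCT2 0 of 4 against 1.42% of 211. In CCD principal 0 of the 3 members tested were called, where edgeR called 0% of 281 genes, 53 had an unadjusted p under 0.05 and DESeq2 called 18. For the member counts of 0, an unadjusted p under 0.05 was found for Calb1 in DCT, for none of the 4 in DCT2, and for Calb1 and Trpv5 in CCD principal. DESeq2 called Calb1 in DCT (log2 change 0.78, adjusted p = 0.0275) and both Calb1 (1.24, 0.000409) and Trpv5 (1.61, 0.0111) in CCD principal.

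The promoter windows of the members are shown because vitamin D acts on such genes through response elements built of pairs of short half-sites. Sequences are those of RefSeq on build GRCm38.p6, 250 bases up to the annotated start and in the direction of the gene, and windows of 3 of the 4 members matched by symbol. The windows of S100g and Slc8a1 adjoin the start of the annotated gene. The start used for Trpv5 lies inside its annotated span, which holds further upstream sequence that is not shown. All 3 windows lie on the minus strand, at chrX:162964600-162964849 for S100g, chr6:41680724-41680973 for Trpv5 and chr17:81738388-81738637 for Slc8a1. Capitals mark the half-site letters AGGTCA or GGTTCA on either strand, and no match overlaps another.
S100g: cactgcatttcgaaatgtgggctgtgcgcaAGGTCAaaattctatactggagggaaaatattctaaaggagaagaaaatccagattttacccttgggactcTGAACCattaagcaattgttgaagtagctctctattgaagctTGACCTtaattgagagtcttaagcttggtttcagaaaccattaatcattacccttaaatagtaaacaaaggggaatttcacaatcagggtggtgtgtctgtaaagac
Trpv5: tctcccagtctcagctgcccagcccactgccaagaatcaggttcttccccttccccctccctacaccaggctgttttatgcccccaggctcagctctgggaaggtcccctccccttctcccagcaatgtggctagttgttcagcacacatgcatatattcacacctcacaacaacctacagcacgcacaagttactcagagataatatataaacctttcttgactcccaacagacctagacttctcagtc
Slc8a1: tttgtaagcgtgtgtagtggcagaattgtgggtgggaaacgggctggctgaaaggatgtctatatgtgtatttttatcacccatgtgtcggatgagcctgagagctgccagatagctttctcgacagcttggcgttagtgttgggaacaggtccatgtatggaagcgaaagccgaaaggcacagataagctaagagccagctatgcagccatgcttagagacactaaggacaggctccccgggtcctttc
S100g held 3 matches, of which 2 were AGGTCA and 1 was GGTTCA. Trpv5 and Slc8a1 held 0 in these windows. Of all 32851 windows of this length, 14.0% held AGGTCA, 8.85% GGTTCA and 21.5% either. These are shares of windows with at least 1 match, and the share with 3 matches is not given here. A match is a stretch of letters and not a shown binding site, and which start the kidney uses was not measured.

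Libraries held 3051 to 4439 cells and 4819988 to 7635509 counts, with medians of 1073 to 1539.5 counts per cell. Of 21958 distinct cell labels, 196 occurred in more than 1 library. How the authors drew their 15 classes is not given in the sources used here, and the members may have entered it, so levels between classes are descriptions without a test. Leading markers were set beside the labels. Slc12a3, the DCT sodium-chloride cotransporter, stood at 88971 to 112878 counts per 1000000 panel counts of the class (CPM) in DCT. It stood at 55496 to 76926 CPM in DCT2 and at 37.7 to 384 CPM in CNT. Slc12a1 stood at 87985 to 100938 CPM in TAL and at 32.2 to 470 CPM in the 4 distal classes. Aqp2, the principal cell water channel, stood at 141 to 633 CPM in CCD principal and at 42.6 to 108 CPM in CNT. The same panel total is the base of every CPM value below, which is thus a share of 456 chosen genes.

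**Figure D1:**
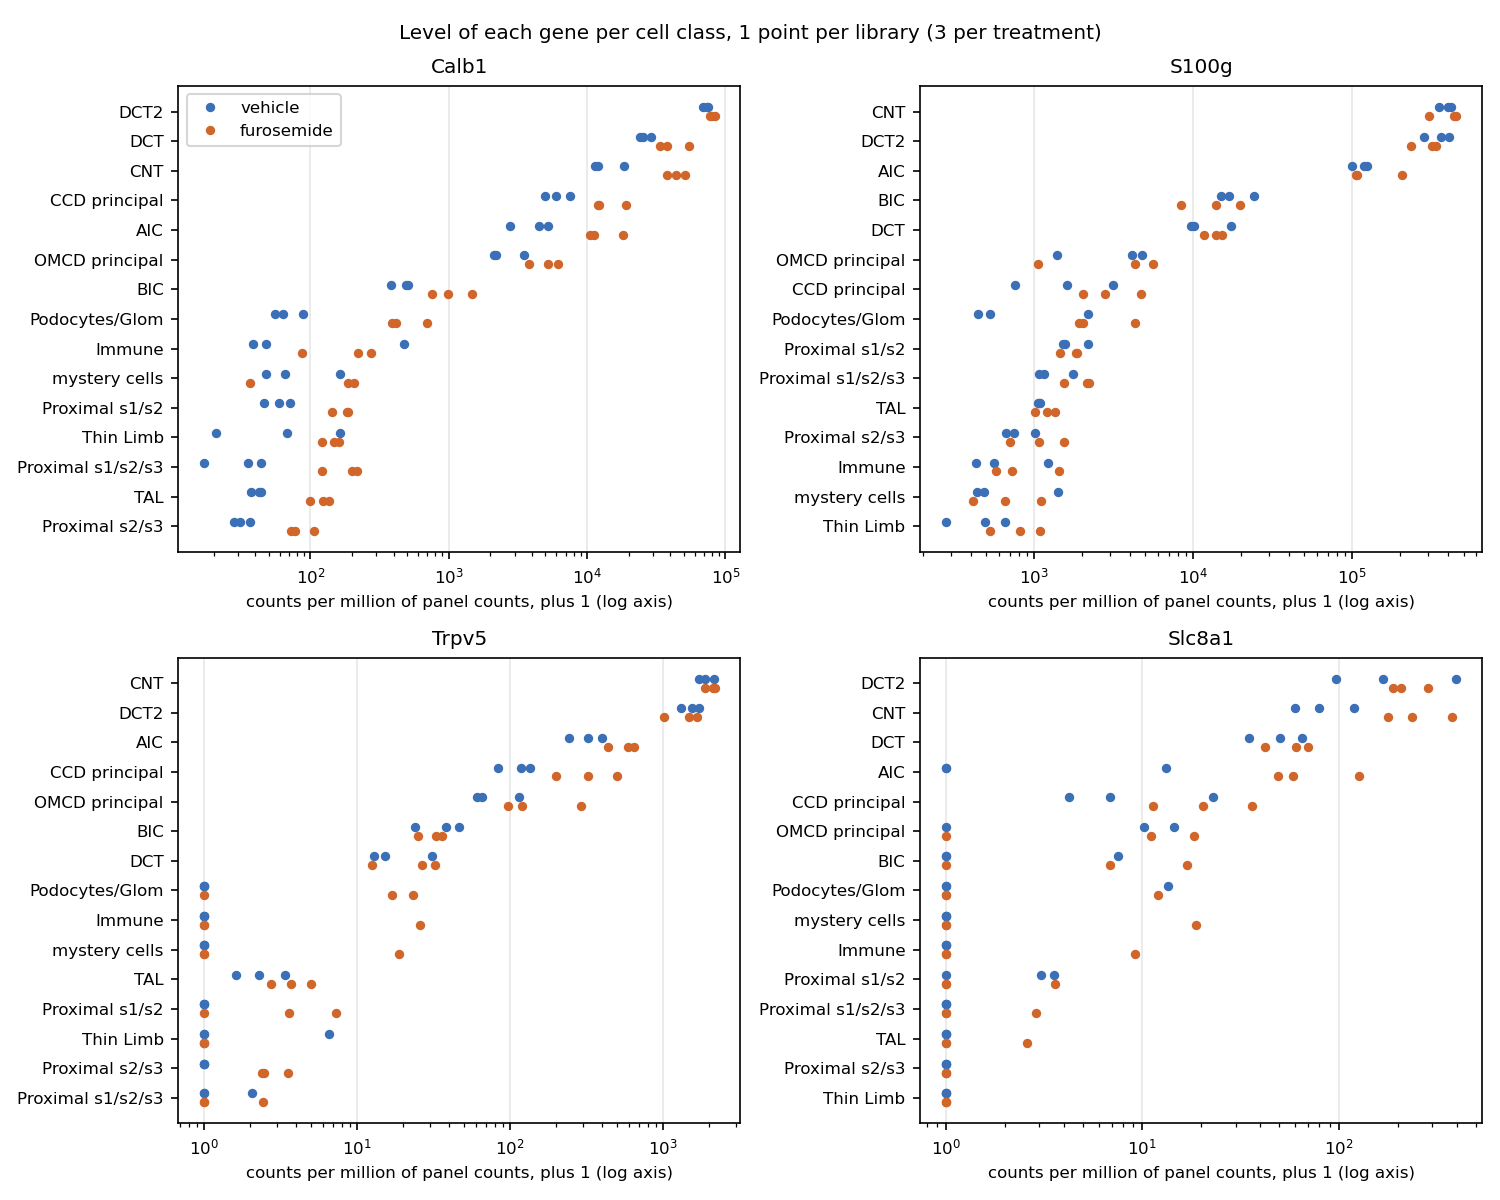
Level of each gene in the authors' 15 classes, in CPM plus 1 on a log axis, with 1 point per library (blue vehicle, orange furosemide) and classes ordered by their mean over the 6 libraries. Calb1 led in DCT2 with 68832 to 83652 CPM, S100g in CNT with 303434 to 451555 CPM, Trpv5 in CNT with 1714 to 2184 CPM and Slc8a1 in DCT2 with 96.6 to 398 CPM.

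Over the 6 libraries, Calb1 was ordered as DCT2, DCT, CNT, CCD principal, AIC and OMCD principal, the latter 2 being class names kept as the authors wrote them. Its DCT2 range was apart from that of DCT, while each later neighbour in that order overlapped the one before. S100g had the order CNT, DCT2, AIC, BIC and DCT, with CNT and DCT2 overlapping, DCT2 and AIC apart, AIC and BIC apart, and BIC and DCT overlapping. Trpv5 had the order CNT, DCT2, AIC and CCD principal, with only DCT2 and AIC apart. For Slc8a1 the order was DCT2, CNT, DCT and AIC, and every neighbour overlapped. Under furosemide alone 3 neighbouring pairs turned. The mean Slc8a1 level was 265 CPM in CNT and 226 CPM in DCT2, and 77.2 CPM in AIC and 56.5 CPM in DCT. The mean Calb1 level was 44089 CPM in CNT and 41848 CPM in DCT.

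Trpv5, the entry channel, had its highest level in CNT. Its CNT levels were 1714, 2147 and 1890.4 CPM under vehicle (libraries 1, 3 and 5, the order kept below) and 1887, 2128 and 2184 CPM under furosemide (libraries 2, 4 and 6). DCT2 followed with 1726, 1541 and 1320.3 CPM under vehicle and 1477, 1669 and 1018 CPM under furosemide. Treatments overlapped in both classes, and so did the class ranges. With furosemide the log2 change was 0.28 ± 0.18 (SE; edgeR adjusted p = 0.483) in CNT and -0.30 ± 0.20 (0.623) in DCT2. The interval of ± 2 SE around the CNT change ran from -0.07 to 0.63, and that in DCT2 from -0.71 to 0.10.

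Further along the duct Trpv5 was far lower, yet its libraries did not overlap between treatments. In CCD principal it stood at 117, 135 and 82.6 CPM under vehicle, from 36, 46 and 15 counts, and at 199, 325 and 503 CPM under furosemide, from 51, 185 and 97 counts. All 3 furosemide libraries were above all vehicle libraries. The log2 change was 1.63 ± 0.37, which edgeR did not call (adjusted p = 0.0937). In DCT the gene stood at 11.5 to 31.4 CPM in all 6 libraries, from 5 to 18 counts each, with overlapping treatments. DCT and DCT2 were thus apart by a wide margin in Trpv5 although the authors named both for the distal convoluted tubule.

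Calb1, the larger of both calcium buffers, had its highest level in DCT2, with 68832, 73329 and 74194 CPM under vehicle and 77144, 83652 and 79846 CPM under furosemide. These plain levels did not overlap between treatments. The change in edgeR's fit, which rescales libraries by TMM, was 0.03 ± 0.17 (adjusted p = 0.942), with an interval from -0.30 to 0.37. With library size alone it was 0.15 (adjusted p = 0.711), under a scaling that moved the median of all DCT2 genes by 0.13. In DCT2 the order of the plain levels thus rests on the scaling.

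CNT held the widest shift of Calb1 among the 4 distal classes. It stood at 11909.9, 18460.4 and 11493 CPM under vehicle and at 37607, 43869 and 50790.3 CPM under furosemide. The lowest furosemide library was above the highest vehicle library. Means were 13955 ± 3908 and 44089 ± 6594 CPM (SD, n = 3 libraries each). The log2 change was 1.82 ± 0.27 (edgeR adjusted p = 0.0122). The call was lost without vehicle library 1 (1.74, adjusted p = 0.141) and without furosemide library 4 (1.93, 0.0532).

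In DCT, Calb1 stood at 23956, 29048 and 25540.5 CPM under vehicle and at 37724, 33432 and 54389.5 CPM under furosemide. The treatments did not overlap, and furosemide library 6 was above the other 5 libraries. The log2 change of 0.79 ± 0.23 was not called by edgeR (adjusted p = 0.111), but was called by DESeq2 and, in edgeR, without furosemide library 4 (0.98, adjusted p = 0.0429). In CCD principal the levels were 5927, 7486 and 4984 CPM under vehicle and 12158, 11986 and 19071 CPM under furosemide. Again every furosemide library was above every vehicle library. The log2 change was 1.26 ± 0.23 (edgeR adjusted p = 0.0618), and it was called by DESeq2 (0.000409) and with cells thinned to 500 counts (1.20, 0.0247).

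The 4 classes did not share 1 size of the Calb1 change. An interaction test in edgeR, with the library as a term, gave a larger change in CNT than in DCT2 by 1.87 ± 0.23 on the log2 scale (adjusted p = 0.0153; 1.2% of 250 genes called). It also gave a larger change in CNT than in DCT by 1.27 ± 0.20 (adjusted p = 0.025; 0.997% of 301 genes called), where the median difference over all tested genes was 0.16. That second call was lost in limma (1.27, adjusted p = 0.0537) and on leaving out each library but vehicle library 3, with adjusted p from 0.061 to 0.151. The first was lost without vehicle library 1 (1.78, 0.0737) and without furosemide library 4 (1.94, 0.0606). CNT against CCD principal differed by 0.68 ± 0.11 (adjusted p = 0.0536; 0% of 295 genes called, 38 with an unadjusted p under 0.05). DCT2 against DCT differed by -0.68 ± 0.16 (adjusted p = 0.0992; 0.758% of 264 genes called).

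**Figure D2:**
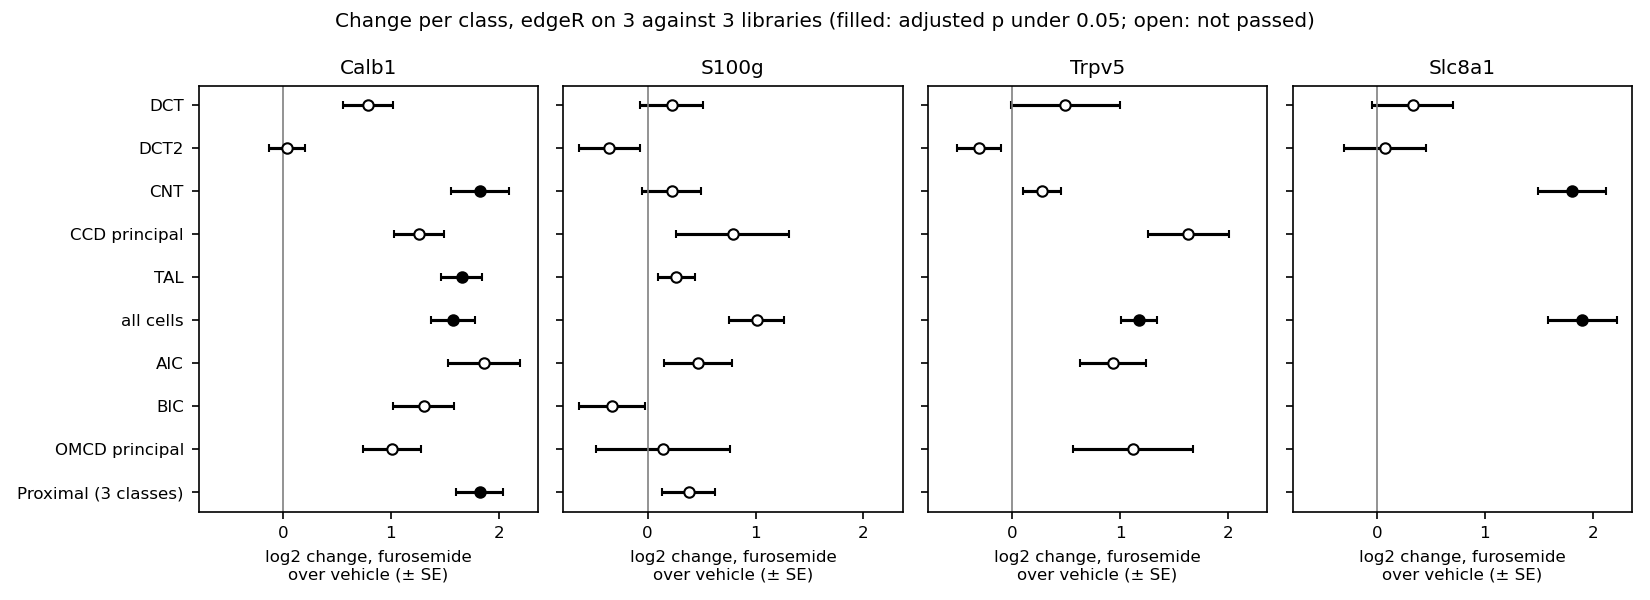
Log2 change with furosemide over vehicle (± SE) of each gene in each class tested, from edgeR on 3 against 3 libraries, with filled points for an adjusted p under 0.05. Calb1 was called in CNT (1.82), TAL (1.66), the summed proximal classes (1.83) and all cells (1.57), while its DCT2 value lay at 0.03.

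Within CNT the higher Calb1 level was spread over the cells rather than held by a few. The median CNT cell gave 0.918%, 1.13% and 0.947% of its panel counts to Calb1 under vehicle, and 3.29%, 3.86% and 4.70% under furosemide. The 10th percentile of furosemide cells was 1.27%, 1.32% and 1.46%, above each vehicle median. The 90th percentile of vehicle cells was at most 3.17%, below each furosemide median. Both ends of the distribution over cells therefore lay higher with furosemide.

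DCT cells were far more varied. Their 10th and 90th percentiles were 0% and 5.41% in vehicle library 1, against 0.451% and 7.81% in furosemide library 2, and their medians were 1.32%, 2.22% and 1.89% under vehicle and 3.37%, 2.99% and 4.77% under furosemide. The spread within a library exceeded the shift between treatments in DCT. CCD principal medians were 0.400%, 0.606% and 0.331% under vehicle and 1.01%, 0.718% and 1.16% under furosemide. The upper end moved furthest there: the 90th percentile was 1.51%, 1.68% and 1.39% under vehicle and 2.66%, 2.88% and 4.59% under furosemide.

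**Figure D3:**
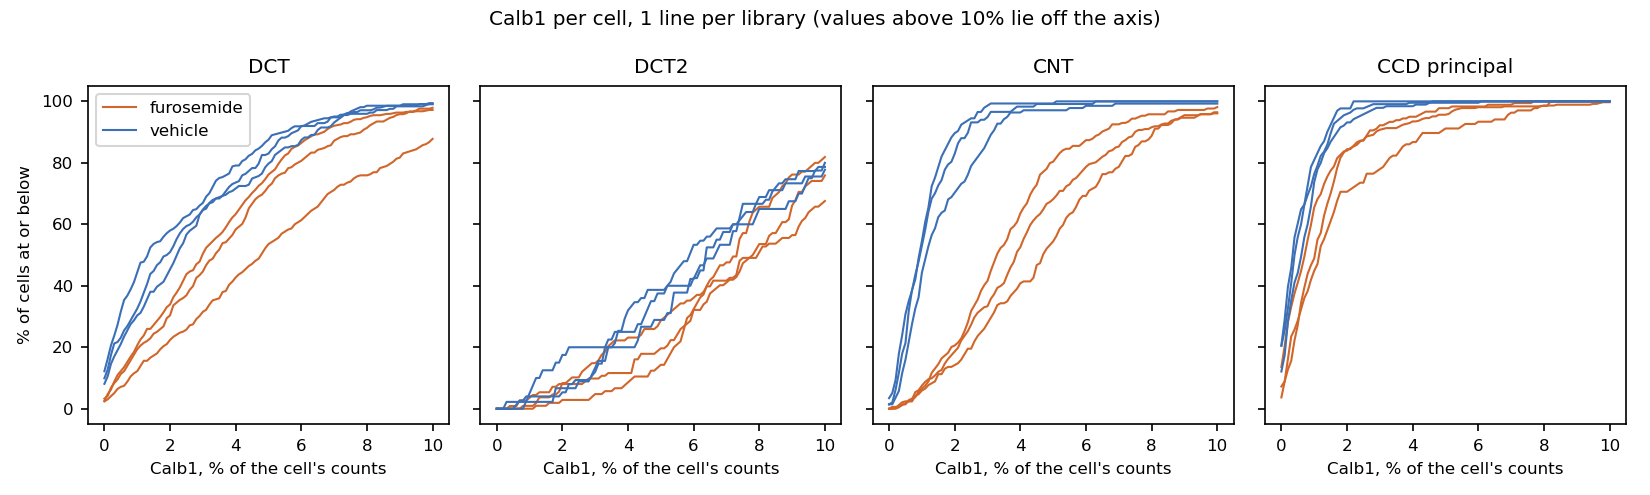
Share of cells (vertical axis, %) at or below a given Calb1 share of the cell's panel counts (horizontal axis, %), with 1 line per library in 4 classes. In CNT the furosemide lines lie to the right of the vehicle lines over their length, with medians of 3.29% to 4.70% against 0.918% to 1.13%.

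S100g, the small calbindin, took the largest share of counts of any member. In CNT it stood at 396940.0, 418496 and 350493 CPM under vehicle and at 435032, 303434 and 451555 CPM under furosemide. That is 30.3% to 45.2% of all panel counts of the class. Furosemide library 4 was the lowest of the 6 and library 6 the highest, so the treatments overlapped at both ends. The log2 change was 0.22 ± 0.27 (edgeR adjusted p = 0.747), with an interval from -0.32 to 0.76.

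In DCT2, S100g stood at 359233, 403936 and 280742 CPM under vehicle and at 315401, 232545 and 337077 CPM under furosemide, with a log2 change of -0.35 ± 0.29 (edgeR adjusted p = 0.679). Levels in DCT were far lower, from 9619.5 to 17258 CPM over the 6 libraries (0.22 ± 0.29, adjusted p = 0.88). Those in CCD principal ran from 760.0 to 4665 CPM (0.79 ± 0.52, 0.54). The treatments overlapped in each of these 3 classes. A gene at this share can shift the shares of all others, so the fits were repeated with library sizes and TMM computed without the 4 members: Calb1 in CNT then changed by 1.85 (adjusted p = 0.0114) and Slc8a1 by 1.82 (0.0168).

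Slc8a1, the exchanger at the exit, was counted rarely. In CNT it had 15, 22 and 22 counts under vehicle, or 59.4, 78.2 and 118 CPM, and 88, 270 and 88 counts under furosemide, or 178, 379 and 236 CPM. Every furosemide library was above every vehicle library, and furosemide library 4 was the highest. The log2 change was 1.80 ± 0.32 (edgeR adjusted p = 0.0157). The call was lost with cells thinned to 500 counts (2.30, adjusted p = 0.0717) and without vehicle library 1 (1.63, 0.146), vehicle library 3 (1.81, 0.0553) or furosemide library 4 (1.58, 0.0819).

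The highest Slc8a1 level of the vehicle libraries was in DCT2, at 96.6, 167 and 398 CPM from 15, 18 and 25 counts. Under furosemide DCT2 had 207, 284 and 188 CPM from 43, 53 and 37 counts, within the vehicle range. The log2 change there was 0.08 ± 0.38 (edgeR adjusted p = 0.942). DCT stood at 34.0, 49.6 and 63.9 CPM under vehicle and 68.6, 41.3 and 59.8 CPM under furosemide, which overlap (0.33 ± 0.38, adjusted p = 0.861). The change in CNT exceeded that in DCT2 by 1.74 ± 0.33 and that in DCT by 1.65 ± 0.48, neither of which passed (edgeR adjusted p = 0.0574 and 0.167). CCD principal had 1 to 20 counts per library and did not pass the low-count filter of that class. In the fit of both classes the change in CNT exceeded that in CCD principal by 0.53 ± 0.67 (edgeR adjusted p = 0.861).

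Each of the other two genes was also compared between classes. S100g changed by 0.59 ± 0.15 more in CNT than in DCT2 (edgeR adjusted p = 0.108), and the Trpv5 change in CNT minus that in CCD principal was -1.21 ± 0.28 (adjusted p = 0.11). Neither difference passed.

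Lists of cell type markers were summed in the 4 distal classes, and those whose libraries did not overlap between treatments are given here. Most pairs of list and class did overlap. Without any effect of treatment, a pair would be apart in either direction with an exact permutation probability of 0.1. Some of the many pairs would thus be apart by chance, and the values below are descriptions without a test. In CNT the summed level of the 7 listed DCT markers was 2860 to 5101 CPM under vehicle and 5493 to 5993 CPM under furosemide, without overlap, with Pvalb at 0. Slc12a3 alone stood at 119, 81.8 and 37.7 CPM under vehicle and 326, 352 and 384 CPM under furosemide in CNT. The proximal tubule list stood in CNT at 1664 to 2606 CPM under vehicle and at 945 to 1393 CPM under furosemide. The 5 listed immune markers summed to 350.1 to 447 CPM and 507 to 959 CPM, mostly Cd8a. Over the 6 libraries Cd8a alone stood at 284 to 844 CPM in CNT, 16.5 to 116 CPM in CCD principal and 0 to 17.6 CPM in DCT. In CCD principal, the CNT list without the 4 members was 104854 to 115529 CPM under vehicle and 124213 to 147726 CPM under furosemide. Most of its genes are also on the principal cell list. That list overlapped in CCD principal, at 181121 to 201715 CPM under vehicle and 190207 to 213158 CPM under furosemide. There the type A intercalated list was 2214 to 3154 CPM and 826 to 2024 CPM, and the type B list 325 to 479 CPM and 104 to 246 CPM. In DCT2 the thin limb list was 1829 to 3309 CPM under vehicle and 3487 to 6725 CPM under furosemide. The same list stood at 32482 to 48225 CPM in CCD principal under vehicle, so it does not mark thin limb cells alone. The part of these markers in the changes of the members was not tested.

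The authors' second clustering divides the classes further. Of 1116 CNT cells, 964 lay in a cluster named CNT sub2 and 138 in CNT sub3. Calb1 rose by 1.90 ± 0.24 in CNT sub2 (edgeR adjusted p = 0.00486) and Slc8a1 by 1.79 ± 0.33 (0.0207), so that 2 of 4 members were called against 7.76% of 245 genes. In CNT sub3 the Calb1 change was 1.58 ± 0.36 (adjusted p = 0.179; 0% of 136 genes called and 9 with an unadjusted p under 0.05). Of 1901 DCT cells, 1648 lay in DCT sub1, where Calb1 changed by 0.73 ± 0.22 (adjusted p = 0.107; 5.54% of 271 genes called). The 241 cells of DCT sub2 showed a called rise of Calb1, by 1.15 ± 0.22 (adjusted p = 0.0388; 2.48% of 161 genes called). DCT sub3 held 452 of the 485 DCT2 cells, and Calb1 changed by 0.03 ± 0.14 there (adjusted p = 0.932; 1.49% of 202 genes called).

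Cells with a count of all 4 genes were counted next, where a gene without a count may still be expressed. In CNT, at least 1 count of all 4 genes was seen in 9.66%, 10.9% and 12.8% of cells under vehicle and in 29.9%, 49.2% and 32.5% under furosemide. Means were 11.1% ± 1.60 and 37.2% ± 10.5 (SD, n = 3 libraries each), and the libraries did not overlap. The exact two-sided permutation p was 0.1, the smallest that 3 against 3 libraries allow, and 0.333 after adjustment over 20 shares. This design cannot reach 0.05.

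Slc8a1 was the rarest of the 4 in these cells. S100g was found in every CNT cell of both treatments, Calb1 in 97.9% ± 1.16 and 100% and Trpv5 in 88.8% ± 4.07 and 93.2% ± 1.77. Slc8a1 was found in 11.7% ± 2.54 of CNT cells under vehicle and in 38.4% ± 11.2 under furosemide. Of the 46 vehicle and 293 furosemide cells with a Slc8a1 count, 44 and 283 held all 4 genes. The share with all 4 in CNT thus follows the detection of Slc8a1. Most vehicle cells, 304 of 400, held the other 3 genes and lacked a count of Slc8a1. The product of the 4 single shares was 8.47% to 11.9% under vehicle and 28.1% to 48.4% under furosemide, each within 2 percentage points of the observed share.

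CNT cells were also deeper under furosemide, with medians of 1956 to 2041 counts per cell against 1374 to 1797.5 under vehicle. Cells were therefore thinned to 500 counts each, which left out 5 of 400 vehicle and 5 of 716 furosemide CNT cells. The share with all 4 genes was then 1.95% ± 2.23 under vehicle and 8.41% ± 3.21 under furosemide, still without overlap of the libraries. At 2 counts or more of each gene the shares were 2.82% ± 1.90 and 13.0% ± 4.77. The difference of 26.1 percentage points thus fell to 6.47 with thinned cells and to 10.2 with the stricter count.

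In DCT2 the share with all 4 was 24.8% ± 9.96 under vehicle and 22.8% ± 4.36 under furosemide, which overlap (exact permutation p = 0.7). Calb1 and S100g were counted in each DCT2 cell. In DCT the full set was seen in 2 of 804 vehicle and 2 of 1097 furosemide cells, where Trpv5 was found in 2.16% ± 1.08 and 1.78% ± 0.695 of cells. S100g made up 0.168%, 0.259% and 0.120% of the counts of the median DCT cell under vehicle and 0.280%, 0.110% and 0.497% under furosemide. At the 90th percentile of DCT cells it was 1.57% to 3.27% and 1.19% to 4.17%.

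In CCD principal all 4 genes were counted in 14 of 684 furosemide cells, or 1.77% ± 0.843. Under vehicle there were 0 of 541, which allows a share of up to 0.555% (counting error only). The exact permutation p was 0.1, and the difference of 1.77 percentage points fell to 0.277 with thinned cells and to 0.185 at 2 counts or more. Observed furosemide shares of 1.11%, 2.72% and 1.47% were above the products of the single shares, 0.162%, 0.360% and 0.276%. They come from 2, 10 and 2 cells. With thinned cells share and product were both 0% in libraries 2 and 6, and 0.831% against 0.0445% in library 4. From all counts, Trpv5 was found in 9.43% ± 1.99 of CCD principal cells under vehicle and 22.5% ± 8.92 under furosemide, without overlap, and Calb1 in 82.3% ± 4.87 and 91.8% ± 5.02.

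**Figure D4:**
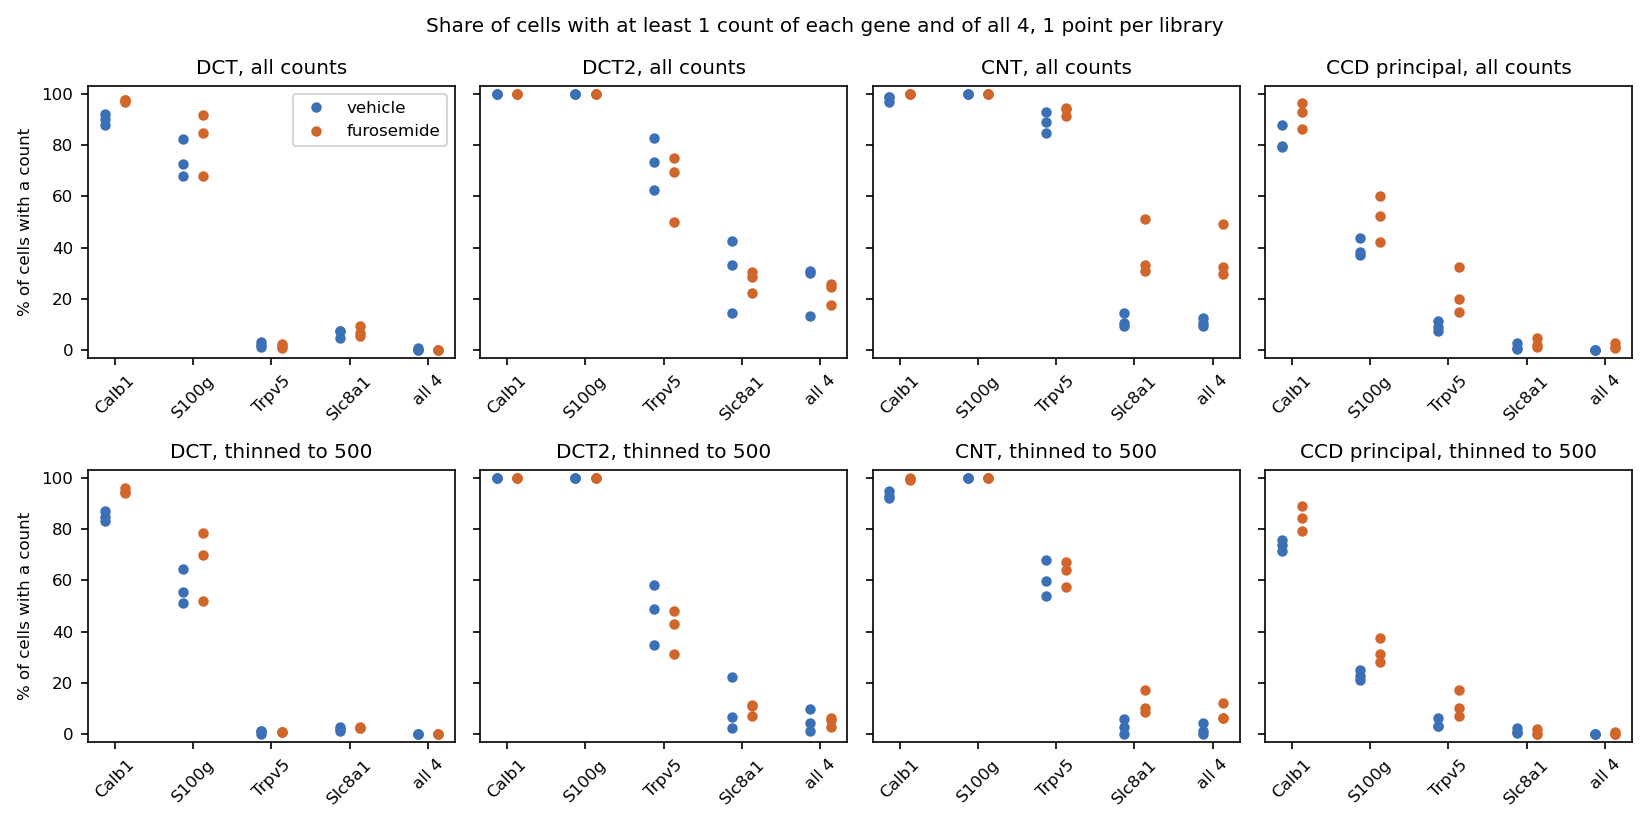
Share of cells (%) with at least 1 count of each gene and of all 4, with 1 point per library (blue vehicle, orange furosemide), from all counts in the top row and from cells thinned to 500 counts in the bottom row. In CNT the share with all 4 was 9.66% to 12.8% under vehicle and 29.9% to 49.2% under furosemide, and after thinning the means were 1.95% and 8.41%.

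Proximal tubule cells, which are not known for these genes, were set beside the distal classes as a comparison for free RNA, which was not itself measured. Of the 3 proximal classes summed, 62.4% ± 5.83 of vehicle cells and 64.5% ± 3.73 of furosemide cells held a count of S100g, at library medians of 948.5 to 1494 counts per cell. The S100g level was not the same in all classes of low level, at 1753 ± 369 CPM in Proximal s1/s2 and 472 ± 189 CPM in Thin Limb under vehicle. In vehicle library 1 these were 57.3% of cells with a count at a median of 753.5 counts per cell and 31.5% at 1196.5. In the 3 proximal classes summed, Calb1 was found in 4.44% ± 0.975 of vehicle cells and 10.7% ± 0.472 of furosemide cells. Trpv5 was found in 1 of 4898 vehicle and 16 of 5316 furosemide cells, and Slc8a1 in 2 and 2. The S100g share in CCD principal, 39.7% ± 3.47 under vehicle and 51.6% ± 8.97 under furosemide, was below the proximal share, while the S100g level was 1832 ± 1202 and 3151 ± 1364 CPM there against 1151 ± 309 and 1396 ± 417 CPM in the proximal sum (SD, n = 3 each). The part of free RNA in the CCD principal counts was not tested. The Slc8a1, Trpv5 and Calb1 shares in CNT were far above the proximal shares of the same genes.

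Calb1 was nevertheless called in TAL and in the summed proximal classes. It stood at 42.7, 41.5 and 36.1 CPM under vehicle and 123, 135 and 97.6 CPM under furosemide in TAL (1.66 ± 0.19, edgeR adjusted p = 0.00701). There 1 of the 2 members tested was called, against 4.73% of 317 genes. In the summed proximal classes it stood at 40.9, 33.3 and 33.6 CPM and at 94.6, 117 and 149 CPM (1.83 ± 0.22, adjusted p = 0.033), 1 of 2 members against 0.299% of 335 genes. That proximal call was lost with equal cell numbers (1.73, 0.0898), with thinned cells (1.75, 0.056) and on leaving out vehicle library 3 or 5 or furosemide library 4 or 6 (1.69 to 1.84, 0.0751 to 0.204). As a percentage of the library's all-cell level, Calb1 in TAL was 0.875% to 1.15% under vehicle and 0.794% to 1.30% under furosemide, and in the proximal sum 0.703% to 1.07% and 0.789% to 1.21%. These ranges overlap between treatments. In Proximal s1/s2/s3 alone the percentage was 0.338% to 1.10% under vehicle and 0.996% to 2.09% under furosemide. For S100g in TAL it was up to 5.31% under vehicle and 2.15% to 2.72% under furosemide, and the vehicle libraries all lay above the furosemide libraries. Other low classes were not fitted. Calb1 stood at 68.3 ± 17.4 CPM under vehicle and 500 ± 173 CPM under furosemide in Podocytes/Glom, without overlap. It overlapped in Immune (186 ± 250 and 192 ± 95.5 CPM), Thin Limb (82.9 ± 72.4 and 142 ± 19.7 CPM) and mystery cells (91.6 ± 63.1 and 143 ± 93.6 CPM).

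The calbindins were also compared with each other. Per 100 S100g counts, TAL held 3.33 to 4.03 Calb1 counts under vehicle and 8.11 to 13.3 under furosemide, and the proximal sum 2.24 to 4.43 and 6.46 to 12.3. CNT held at most 4.41 under vehicle and 8.64 to 14.5 under furosemide. All cells of a library held 15.4 to 15.9 and 19.2 to 27.9. DCT held 168 to 266 and 272 to 360, and DCT2 18.2 to 26.4 and 23.7 to 36.0. The part of free RNA in the TAL and proximal levels was not tested.

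The classes named AIC, BIC and OMCD principal were also fitted. In AIC, Calb1 stood at 4466, 2774 and 5196 CPM under vehicle and 18188, 11234 and 10466 CPM under furosemide (1.86 ± 0.34, edgeR adjusted p = 0.177). edgeR called 0% of 219 AIC genes, 13 had an unadjusted p under 0.05 and DESeq2 called 1, Calb1. S100g in AIC ranged from 99082 to 203898 CPM and Trpv5 from 243 to 644 CPM. Slc8a1 there had 1, 0 and 0 counts under vehicle and 8, 5 and 4 under furosemide. Of the AIC cells, 303 lay in the second clustering's AIC sub2, with 63279 CPM of S100g, and 34 in CNT sub1, with 276153 CPM of S100g and 1120 CPM of Trpv5. Calb1 stood at 6532 CPM in the former and 15414 CPM in the latter. The CNT sub1 cells numbered 3, 4 and 2 under vehicle and 7, 13 and 5 under furosemide, and their part in the AIC values was not tested.

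In BIC, Calb1 stood at 379.6, 511 and 487 CPM under vehicle and 986, 753 and 1467 CPM under furosemide (1.30 ± 0.28, adjusted p = 0.0647; 0.408% of 245 genes called by edgeR, none of them a member). In OMCD principal the levels were 2188, 3471 and 2107 CPM and 5202, 3806 and 6124 CPM (1.01 ± 0.27, adjusted p = 0.212; 0% of 244 genes called, 31 with an unadjusted p under 0.05 and 6 called by DESeq2). Calb1 was above its vehicle range in each furosemide library of AIC, BIC and OMCD principal, and edgeR called it in none of them. How many other genes of these classes were also apart is not given here. S100g overlapped between treatments in all 3.

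**Figure D5:**
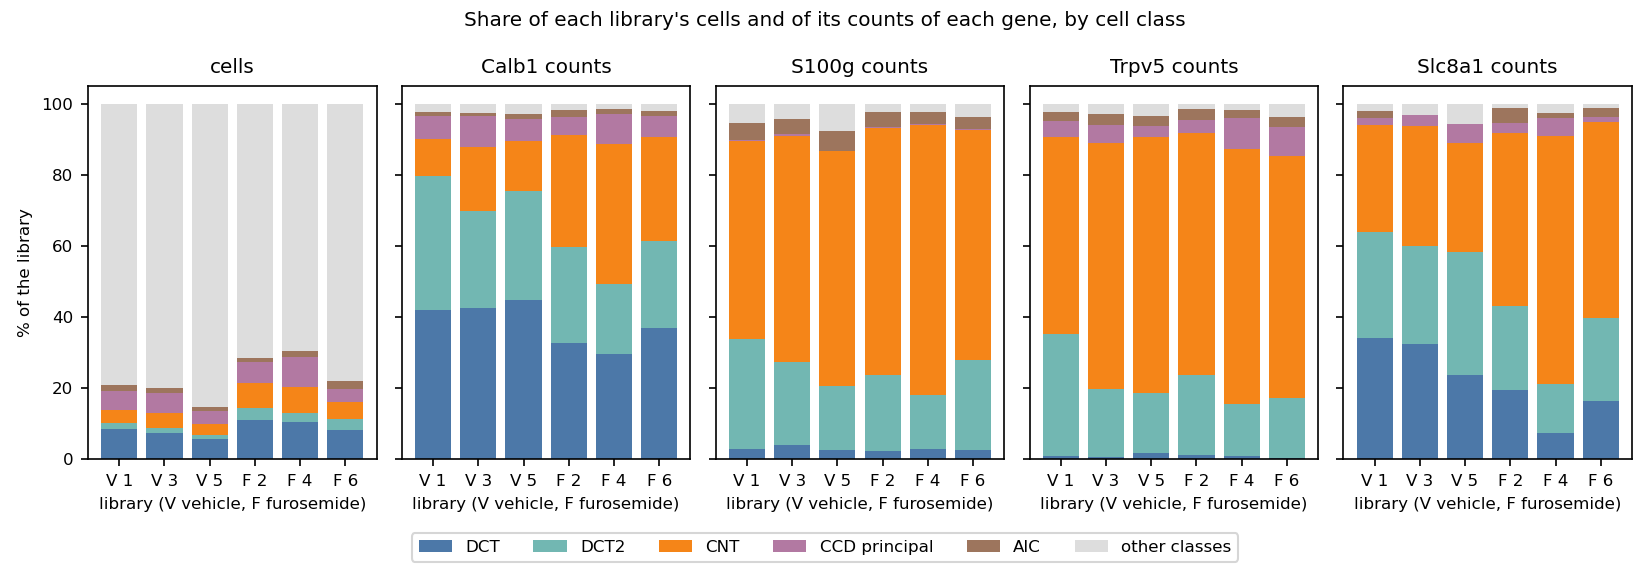
Share (%) of each library's cells and of its counts of each gene that lies in each class, with 1 bar per library (V vehicle, F furosemide). CNT held 3.63% of vehicle and 6.41% of furosemide cells on average, but 61.8% and 70.0% of S100g counts and 14.2% and 33.4% of Calb1 counts.

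Summed over all cells of a library, 3 of the 4 members were called, against 4.46% of 426 genes. Calb1 stood at 4513, 4741 and 3146 CPM under vehicle and 11991, 10403 and 12290.0 CPM under furosemide (1.57 ± 0.21, edgeR adjusted p = 0.0239). Trpv5 stood at 124, 143 and 101 CPM and at 277, 277 and 229 CPM (1.17 ± 0.17, 0.0239). Slc8a1 had 7.92, 10.7 and 14.9 CPM and 36.7, 50.7 and 30.4 CPM (1.90 ± 0.32, 0.0264), a call lost with thinned cells (1.79, 0.129). S100g stood at 28451, 30392 and 20416 CPM and at 62551, 37300.3 and 49897 CPM (1.01 ± 0.26, 0.104). Each of the 4 was apart between treatments in this whole-library view (exact permutation p = 0.1). How many of the 426 genes were also apart is not given here, so this is not a result about the members. Leaving out 1 library ended the Calb1 and Trpv5 calls in 4 of 6 cases each and the Slc8a1 call in 5 of 6.

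Where those counts lay differed by gene. CNT held 14.2% ± 3.71 of a vehicle library's Calb1 counts and 33.4% ± 5.23 of a furosemide library's, and DCT 43.1% ± 1.47 and 33.0% ± 3.66. For Slc8a1 the CNT share was 31.5% ± 2.08 and 57.9% ± 10.8. For Trpv5 it was 65.5% ± 8.79 and 69.3% ± 2.01, and for S100g 61.8% ± 5.38 and 70.0% ± 5.69. CNT cells were 3.18% to 4.16% of a vehicle library and 4.71% to 7.50% of a furosemide library, and DCT2 cells 1.09% to 1.84% and 2.43% to 3.44%. These cell shares are the base of the sums and not a result, since the classes may have been drawn with the members, and the authors had brought both treatments to equal cell numbers.

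Setting each library to 1 fixed mix of the 15 classes held the share of cells per class fixed. Counts per cell within a class were left as measured, and their part in the ratios was not tested. The log2 ratio of plain all-cell means of Calb1 went from 1.48 to 0.87, and its libraries stayed apart (5109 to 5801 CPM against 8262 to 11967 CPM). Slc8a1 went from 1.81 to 1.01, at 9.57 to 24.6 CPM against 27.9 to 38.0 CPM. Trpv5 went from 1.09 to 0.37, at 162 to 174 CPM against 206 to 233 CPM. Its mean level within CNT was 1917 CPM under vehicle and 2066 CPM under furosemide. Within DCT2 it was 1529 and 1388 CPM, and the treatments overlapped in both classes. S100g went from 0.92 to 0.19 and overlapped (32049 to 37859 CPM against 28048 to 47265 CPM). Exact permutation p over the 6 libraries was 0.1, the smallest this design allows, for each of the first 3 and 0.4 for S100g at the fixed mix. The fixed mix was computed for the members alone. How many other genes would be apart is not given here, so this is not a result about the members.

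The wider list of calcium and magnesium handling held 49 genes, 24 of them in the panel with the 4 members. In CNT 19 were tested and 3 were called, all higher: Calb1, Slc8a1 and Slc12a3. The median log2 change was 0.22 over the list, -0.10 over its 15 genes other than the members, and 0.01 over all genes tested. Slc12a3 changed by 2.27 ± 0.36 in CNT (edgeR adjusted p = 0.0122) from the low levels given above, but with CNT taken from the second clustering by 0.76 (adjusted p = 0.694). Of 21 list genes tested in DCT, 17 in DCT2 and 17 in CCD principal, edgeR called 0, with list medians of 0.05, -0.06 and 0.31 beside -0.02, 0.02 and 0.05 over all genes.

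In TAL 2 of 19 list genes were called higher, Calb1 and Cldn16, and 1 lower, Fxyd2. Cldn16, which forms the paracellular path for calcium and magnesium of this segment, went from 3037, 3089 and 2960 CPM (TMM-scaled) under vehicle to 6120, 4831 and 7958 CPM under furosemide. Its log2 change was 1.06 ± 0.20 (edgeR adjusted p = 0.0426), lost without any 1 of vehicle libraries 1, 3 and 5 or furosemide library 2 (adjusted p from 0.0795 to 0.122). Fxyd2, a subunit of the sodium pump, fell by 1.26 ± 0.13 on the log2 scale (0.0061). Over all cells, Casr, the calcium-sensing receptor, fell by 0.85 ± 0.15 (0.0351) and Cldn10 by 0.74 ± 0.15 (0.049). Leaving out 1 library ended the Casr call in 6 of 6 cases and the Cldn10 call in 5 of 6. TAL cells were 23.7% ± 1.01 of a vehicle library and 13.3% ± 2.13 of a furosemide library, and the part of that share in the Casr and Cldn10 values was not tested. Of the 14 and 15 list genes tested in AIC and BIC and the 15 in OMCD principal edgeR called 0, and of 18 in the proximal sum it called Calb1 alone.

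Genes with a like pattern over the 15 classes were found by Pearson's r of log2 mean CPM plus 1, as a description over 15 points that share the same 6 libraries. Nearest to Calb1 were Clu (r = 0.866), Kcnj10 (0.841) and Rhcg (0.824), and nearest to S100g Clu (0.728), Bsnd (0.691) and Rhcg (0.687). Trpv5 was nearest to Scnn1b (0.874) and Scnn1g (0.873), subunits of the epithelial sodium channel, and to Rhcg (0.852). Slc8a1 was nearest to Clu (0.836), Trpm6 (0.813), the magnesium channel of the DCT, and Scnn1b (0.781). Clu was thus on the list of 3 of the members.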

How the data were processed

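Single kidney cells of 3 vehicle and 3 furosemide samples were captured on BD Rhapsody beads, per the labels' protocols. The authors deposited whole-number counts per cell for a panel of 456 genes, with doublets and a mixed cluster removed and cell numbers made equal between treatments, per the file names. They also deposited other values per cell: library number, treatment, 15 classes and a second clustering of 22 clusters. Bowtie2 2.2.9 was used, per the submitters' processing notes. Genome build, the counting step and correction of molecular barcodes are not given in the sources used here, nor is whether a count is a read or a molecule. No source used here joins the replicate numbers of the titles to the libraries.

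Counts were summed per library and class, and classes with at least 10 cells in each library were fitted with edgeR 4.0.16 in R 4.3.3 (TMM, filterByExpr by group, robust glmQLFit, glmQLFTest, Benjamini-Hochberg over all genes tested). SE is the size of the fitted change over the root of its F value. Levels are plain CPM, that is counts per 1000000 panel counts, and log2 changes use TMM scaling. Interactions kept the library as a term. Alternatives were DESeq2 1.42.0, limma 3.58.1 (prior count 2), other scalings, no filter, equal cell numbers, cells thinned to 500 counts (1283 cells below that were left out), no top 5% of totals, the second clustering and each library left out. Fits of AIC, BIC, OMCD principal and the summed proximal classes, and the fixed class mix, were added after levels had been seen. Scripts were tested on simulated data. Intervals are ± 2 SE, and the limit for 0 cells is 3 counts of the total.

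Named genes are the members, called genes of the calcium and magnesium list, the 3 most alike genes per member, and leading markers of DCT, principal cells and TAL. Cd8a and Pvalb were named after their values were seen. The members and lists were chosen with earlier results of these data known.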

Additional observations from a re-analysis of the deposited data

Results flagged for a closer look

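The change of Calb1 with furosemide differed between classes of the same libraries. It was larger in CNT than in DCT by 1.27 on the log2 scale, and larger in CNT than in DCT2 by 1.87, both by edgeR's test of the difference itself (adjusted p = 0.025 and 0.0153). Of 7 alternatives, 1 kept the call against DCT and 5 kept that against DCT2. The median difference of CNT minus DCT over all tested genes was 0.16. Within each class 3 of 3 furosemide libraries were above all vehicle libraries in plain CPM. In DCT2 that order rests on the scaling, with a fitted change of 0.03 (edgeR adjusted p = 0.942). Groups of 3 libraries were not searched for outlying samples.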

How the results depend on the processing

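No paired analysis was possible because the libraries carry no replicate numbers. Library size alone moved the median change of all CNT genes by -0.16, of DCT2 genes by 0.13 and of TAL genes by -0.11. It turned the 8 higher and 5 lower DCT calls into 5 and 6. Of the 15 alternatives for the Calb1 change in CNT 13 kept the call, and of those for Slc8a1 11 did, and the direction held in each. The cause of the losses was not tested. DESeq2 called Calb1 in DCT (0.78, adjusted p = 0.0275) and in CCD principal (1.24, 0.000409), and Trpv5 in CCD principal (1.61, 0.0111), and it called 22 genes in DCT, 24 in CNT and 18 in CCD principal. Thinned cells gave Slc8a1 changes of 2.30 in CNT (adjusted p = 0.0717) and -0.062 in DCT2, a Calb1 change of 1.20 in CCD principal (0.0247) and an S100g change of -0.39 in OMCD principal. With thinned cells 4 genes were called in CNT and 5 in CCD principal, and the difference in cells with all 4 members was 6.47 percentage points in CNT and 0.277 in CCD principal. At 2 counts or more it was 10.2 and 0.185. With equal cell numbers Slc8a1 in DCT2 changed by -0.16 and 6 DCT2 genes were called, against 5 with library size alone. Without a filter 5 genes were called in CNT and 1 in CCD principal. Without the top 5% of totals 2 were called in CCD principal, and S100g in OMCD principal changed by -0.70. In limma the Calb1 change in CNT exceeded that in DCT by 1.27 (adjusted p = 0.0537), and that of Trpv5 did so by 0.15.

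Leaving out each library in turn gave Calb1 changes from 0.50 to 0.98 in DCT, from -0.072 (without furosemide library 6) to 0.16 in DCT2, and from 1.57 to 2.16 in CNT. S100g ranged from -0.0066 (without furosemide library 6) to 0.46 in CNT, from -0.0084 (without furosemide library 2) to 0.66 in AIC and from -0.35 to 0.57 in OMCD principal. Slc8a1 ranged from -0.35 (without vehicle library 1) to 0.62 in DCT2 and from 1.58 to 2.03 in CNT. Genes called ranged from 0 to 11 in DCT (0 without vehicle library 5), from 3 to 5 in DCT2, from 0 to 8 in CNT (0 without vehicle library 1 or furosemide library 4) and from 0 to 3 in CCD principal. The Calb1 change in CNT exceeded that in DCT by 1.17 to 1.42, that in DCT2 by 1.75 to 2.05 and that in CCD principal by 0.44 to 0.77, and DCT2 minus DCT was -0.81 to -0.52. The same difference of CNT minus DCT ranged from -0.14 to 0.22 for S100g and from -0.57 to 0.23 for Trpv5. For Slc8a1, CNT minus CCD principal ranged from -0.088 to 0.85 and DCT2 minus DCT from -0.51 to 0.17.

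Slc8a1 in CCD principal did not pass the filter and gave no value. The second clustering was not used for AIC, BIC, OMCD principal, the proximal sum or all cells, and clusters were fitted once. With 15 to 22 counts of Slc8a1 per vehicle library in CNT and 5 to 18 counts of Trpv5 per library in DCT, depth limits both values, and 40 cells was the smallest sum of a library in the 4 distal classes.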
